A study of Homo sapiens with 6 samples.

Results

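A set of 10 genes of the BCL2 family was described in A673 and SKNMC cells, which are established Ewing sarcoma cell lines, after exposure to THZ1, a covalent inhibitor of the transcriptional kinase CDK7. The members are MCL1, BCL2, BCL2L1, BCL2L2, BCL2L11, BAX, BAK1, BBC3, PMAIP1 and BID. They were taken by symbol from the deposited expression table, which held 1 entry for each of the 10 among 27420 genes. Each line received either the solvent DMSO or THZ1 at 50 nM (low dose) or 200 nM (high dose), and RNA was taken at 6 h. Total RNA is named as the source material. There was 1 library per condition and 6 libraries in all, so the spread between replicates is unknown and nothing was tested. Levels are FPKM, the fragments assigned to a gene scaled by transcript length and by the number of mapped fragments.

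Proteins of the BCL2 family decide whether the outer mitochondrial membrane is opened, the step that releases cytochrome c and starts the caspase cascade. Pro-survival members (MCL1, BCL2, BCL2L1, which encodes BCL-XL, and BCL2L2, which encodes BCL-W) hold back the effectors BAX and BAK1, which form the pores. BH3-only members (BCL2L11 encoding BIM, BBC3 encoding PUMA, PMAIP1 encoding NOXA, and BID) bind the pro-survival proteins or act on the effectors directly. MCL1 and NOXA are known for transcripts and proteins that turn over quickly, and NOXA binds MCL1 in preference to BCL2 or BCL-XL.

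A few facts of the series bear on every value. All 5 Ewing sarcoma markers examined were above 1 FPKM in all 6 libraries; STEAP1, a surface protein high in this tumor, was between 70.2 and 208 FPKM. Of 4 markers of other cell types, PECAM1 had no entry under that symbol, and EPCAM and ALB stayed under 1 FPKM. PTPRC, a leukocyte surface phosphatase, was between 7.90 and 13.1 FPKM in SKNMC and at most 0.0291 FPKM in A673. The part of PTPRC in the differences between the lines was not tested. A gene was called active in a line if it exceeded 1 FPKM with DMSO, which held for 11077 genes in A673 and 11896 in SKNMC. Changes are log2((FPKM + 1) with THZ1 / (FPKM + 1) with DMSO), which understates the change of low genes. Most active genes were lower with THZ1: the median log2 change at the low and the high dose was -0.27 and -0.40 in A673 and was -0.32 and -0.55 for SKNMC. FPKM is a share of a library, so the zero point depends on scaling. When libraries were instead scaled to the 75th percentile over active genes, these medians were -0.054, -0.072, -0.068 and -0.068, and with division by the median of 82 ribosomal protein genes they were -0.48, -0.71, -0.66 and -1.05. The position of a member relative to the median of all active genes is therefore given beside its change. EEF1A1, a translation factor that every cell uses, was listed at 0 in both SKNMC libraries with THZ1, so a 0 in the table can be a failed estimate; no member was listed at 0. Sequencing depth is unknown from FPKM, so no counting interval could be given.

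All members were detected in all 6 libraries. With DMSO, MCL1 was the highest of the 10 in both lines, followed by BAX. The pro-survival genes held 51.6% of the summed FPKM of the members in A673 with DMSO and 45.2% in SKNMC. At the bottom of the order were BCL2L11 and BBC3, at 1.80 and 0.709 FPKM in A673 and 0.999 and 2.32 FPKM in SKNMC. BBC3 in A673 and BCL2L11 in SKNMC were under the 1 FPKM limit with DMSO, so 9 of the 10 members were active in each line. Across the 10 genes the levels of both lines had a Spearman correlation of 0.94 with DMSO and 0.95 at each dose, a description over 10 points that share a library on each axis. Without replicates it cannot be said which neighbors in the order differ beyond their spread.

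**Figure D1:**
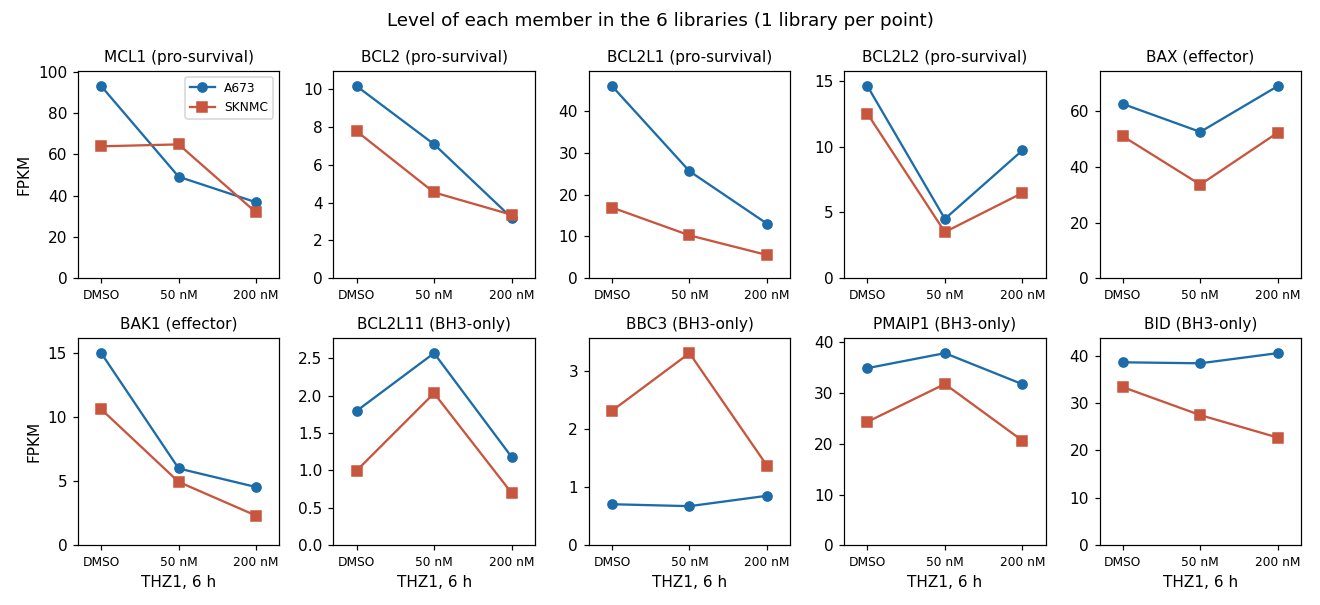
FPKM of each member (y axis, from 0, with its own scale in each panel) with DMSO, 50 nM and 200 nM THZ1 (x axis) in A673 (circles) and SKNMC (squares), 1 library per point. BCL2, BCL2L1 and BAK1 step down at each dose in both lines, BCL2L2 and BAX are lowest at 50 nM, and BCL2L11 and PMAIP1 are highest at 50 nM.

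At 200 nM THZ1 the 4 pro-survival genes kept between 28.5% and 66.5% of their DMSO FPKM over both lines and BAK1 30.3% and 21.8%. The BH3-only genes kept between 59.3% and 120.6%, and BAX 110.2% and 102.6%, so the ranges of the pro-survival and BH3-only genes overlapped. The overlap came from BCL2L2 in A673, at 66.5%, and BBC3 in SKNMC, at 59.3%, with BCL2L11 in A673 at 65.9%. In A673, 4 of the 10 members were at least 2-fold lower at 200 nM (MCL1, BCL2, BCL2L1 and BAK1), and 25.3% of active genes were. In SKNMC, 3 of the 10 were at least 2-fold lower (BCL2, BCL2L1 and BAK1), beside 27.3% of active genes. With the 75th percentile these were 3 in A673, without MCL1, and 1 in SKNMC, BAK1. At 50 nM, 2 members were at least 2-fold lower in A673 (BCL2L2 and BAK1), beside 15.9% of active genes, and 1 in SKNMC (BCL2L2), beside 15.8%. No member was at least 2-fold higher in any of these 4 comparisons, where 0.343%, 0.126%, 0.471% and 0.462% of active genes were (low then high dose, A673 before SKNMC). The median of the 10 members at the low and the high dose was -0.36 and -0.45 in A673 and was -0.43 and -0.69 for SKNMC, in each case slightly under the median of active genes given above. Between the lines, whose DMSO libraries are separate, the log2 changes of the 10 genes had a Spearman correlation of 0.83 at 50 nM and 0.89 at 200 nM. These are 10 points from the same 4 pairs of libraries and are given as a description.

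**Figure D2:**
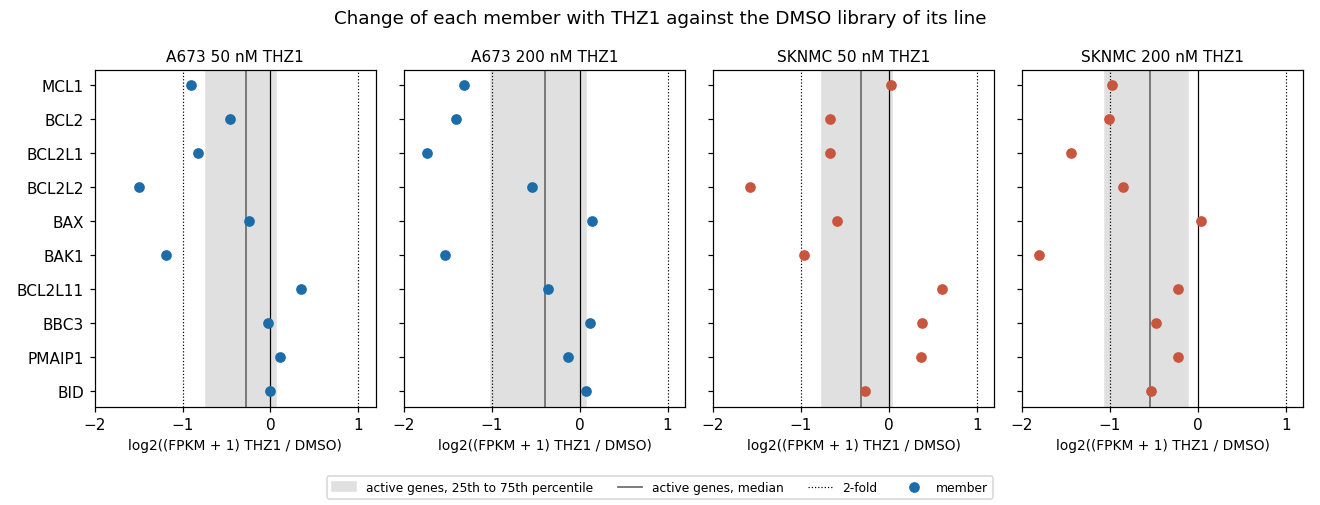
Log2 change of each member with THZ1 against the DMSO library of its line (x axis), 1 panel for each line and dose. Gray bands span the 25th to 75th percentile of active genes, the gray line is their median and dotted lines mark 2-fold. At 200 nM BCL2L1 and BAK1 lie left of the band in both lines, and MCL1 and BCL2 do in A673 alone. At 50 nM BCL2L2 and BAK1 lie left of it in both lines, and MCL1 and BCL2L1 do in A673 alone.

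MCL1 encodes a short-lived pro-survival protein and lies at chr1:150547031-150552066 on the minus strand (ENSG00000143384, hg19). In the order DMSO, low dose and high dose, an order kept throughout, it was at 92.9, 49.1 and 36.8 FPKM in A673 and at 63.8, 64.8 and 31.8 FPKM in SKNMC. In A673 most of the loss was present at the lower dose, whereas in SKNMC the level at 50 nM was that of DMSO and the loss appeared at 200 nM. The log2 change was -0.91 and -1.31 in A673, which is -0.63 and -0.92 relative to the median of active genes. In SKNMC it was 0.021 at 50 nM, which is 0.34 above that median, and -0.98 at 200 nM, which is -0.43 relative to it. The value of 0.021 became -0.36 with division by the ribosomal protein genes, so the sign of MCL1 at 50 nM in SKNMC depends on the scaling. With the 75th percentile the value at 200 nM in A673 was -0.95, short of 2-fold. At 200 nM MCL1 kept 39.6% of its DMSO FPKM in A673 and 49.9% in SKNMC. The level at 200 nM was 74.8% of that at 50 nM in A673 and 49.2% in SKNMC. On the log2(FPKM + 1) scale MCL1 was the 1 member at least 2-fold lower at 200 than at 50 nM in SKNMC, beside 8.39% of active genes, and there was none in A673, beside 7.44%. That count rests on the added 1 FPKM and on scaling: in SKNMC it was 4 with 0.1 FPKM added and 0 with a common sum or the 75th percentile. As plain FPKM, BAK1, BBC3 and BCL2L11 were at 46.8%, 41.5% and 34.5% of their level at 50 nM in SKNMC, and in A673 BCL2 was at 45.3% and BCL2L11 at 46.1%. With 1 FPKM added, no member was at least 2-fold higher at 200 than at 50 nM, beside 0.117% of active genes in A673 and 0.37% in SKNMC, but BCL2L2 in A673 was with 0.1 FPKM added (1.09) and with the 75th percentile (1.07). The difference between the lines at 50 nM could not be tested.

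BCL2L1 encodes BCL-XL, the second pro-survival member by transcript level with DMSO in both lines (chr20:30252254-30311792, minus strand, hg19). Its level was 45.9, 25.6 and 13.1 FPKM in A673 and 16.9, 10.3 and 5.57 FPKM in SKNMC, with DMSO, 50 nM and 200 nM. It stepped down at each dose and kept 28.5% of its DMSO FPKM at 200 nM in A673 and 33.0% in SKNMC. A fall at each step was found for 4 of the 10 members in each line. The same pattern was found for 36.4% of active genes in A673 and 42.7% in SKNMC. The log2 change of BCL2L1 at 200 nM was -1.74 in A673, with 8.02% of active genes lower, and -1.45 in SKNMC, with 12.6% of active genes lower. At 50 nM it was -0.82 and -0.67. All 4 values were below 0 under each of the 3 other scalings, but with the 75th percentile the value at 200 nM in SKNMC was -0.94, short of 2-fold. FPKM sums the isoforms of a gene, so the long and short splice forms of BCL2L1 and of MCL1 could not be told apart.

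BCL2, the founding member of the family, was much less abundant and lies in the longest gene of the 10, with a span of 196.8 kb (chr18:60790578-60987361, minus strand, hg19). It was at 10.2, 7.08 and 3.20 FPKM in A673 and at 7.77, 4.54 and 3.36 FPKM in SKNMC. Both lines stepped down, with the larger drop in FPKM between the doses in A673 and between DMSO and the low dose in SKNMC. The log2 change was -0.46 and -1.41 in A673 and -0.66 and -1.01 in SKNMC, below 0 under each scaling. The last value was -0.98 with all libraries of a line set to a common sum and -0.54 with the 75th percentile, both short of 2-fold. Over the 10 members the Spearman correlation of gene span with the log2 change at 50 nM was 0.018 in A673 and -0.21 in SKNMC. At 200 nM it was -0.38 and -0.39. These are descriptions over 10 points, and a relation of span to the change was not tested.

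BCL2L2, which encodes BCL-W, had a different dose pattern. Its level was 14.6, 4.51 and 9.71 FPKM in A673 and 12.5, 3.51 and 6.48 FPKM in SKNMC. It was the lowest at 50 nM in both lines, with log2 changes of -1.50 and -1.58, where 5.60% and 4.14% of active genes were lower. The step from 50 to 200 nM was 0.96 in A673, above 99.8% of active genes, and 0.73 in SKNMC, above 98.1%. A minimum at 50 nM was found for 33.7% of active genes in A673 and 30.3% in SKNMC. The gene (chr14:23767998-23780968, plus strand, hg19) overlaps BCL2L2-PABPN1, a readthrough gene on the same strand that shares its exons with BCL2L2 and PABPN1, so fragments in the shared exons could be assigned to either. The readthrough gene was at 4.69, 6.38 and 5.12 FPKM in A673 and at 3.86, 4.31 and 5.65 FPKM in SKNMC, and so had no minimum at 50 nM. Summed over both genes the level at 50 nM was 56.5% of DMSO in A673 and 47.8% in SKNMC, and 76.9% and 74.2% at 200 nM. The minimum at 50 nM was thus shallower but present in the sum. FPKM is scaled by the transcript length of each gene, so this sum is not a level of the locus. PABPN1 was also lowest at 50 nM, at 91.0, 67.2 and 86.7 FPKM in A673 and 99.9, 76.2 and 95.1 FPKM in SKNMC. PPP1R3E and HOMEZ overlap BCL2L2 on the opposite strand; PPP1R3E was also lowest at 50 nM, at 2.47, 1.33 and 2.52 FPKM in A673 and 4.47, 2.04 and 4.06 FPKM in SKNMC. HOMEZ was lowest at 200 nM in A673, at 1.57, 0.582 and 0.238 FPKM, and lowest at 50 nM in SKNMC, at 7.52, 0.763 and 1.34 FPKM. The strand setting of the counting is not given in the sources used here. The part of these overlaps in the values was not tested.

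**Figure D3:**
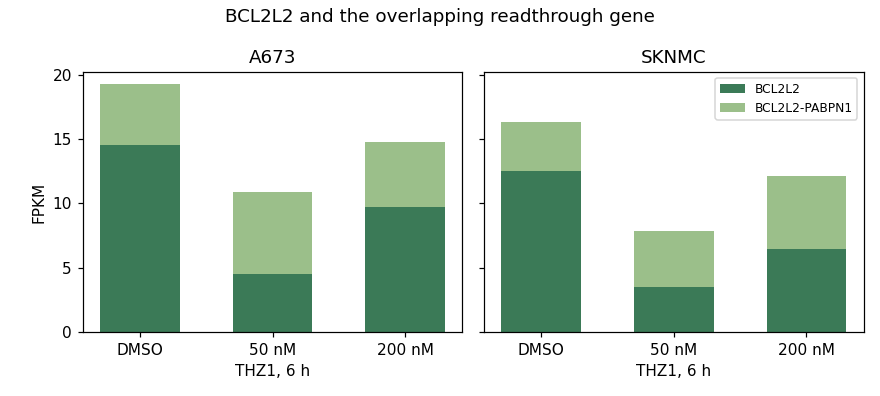
FPKM (y axis, stacked bars from 0) of BCL2L2 and of the readthrough gene BCL2L2-PABPN1 with DMSO, 50 nM and 200 nM THZ1 (x axis) in each line, 1 library per bar. The summed bar is lowest at 50 nM in both lines, at 10.9 FPKM in A673 and 7.83 FPKM in SKNMC.

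The effectors had separate patterns. BAX (chr19:49458071-49465055, plus strand, hg19) was at 62.5, 52.5 and 68.9 FPKM in A673 and at 50.9, 33.6 and 52.2 FPKM in SKNMC. It was lower at 50 nM than in either other library of its line, and at 200 nM it was back at 110.2% of DMSO in A673 and 102.6% in SKNMC. Its log2 change was -0.25 and 0.14 in A673 and -0.59 and 0.036 in SKNMC; the first became 0.0025 with the 75th percentile, and both values at 200 nM were below 0 with the ribosomal protein genes, at -0.22 and -0.54. Relative to the median of active genes, BAX at 200 nM was 0.53 higher in A673 and 0.58 higher in SKNMC. BAK1 (chr6:33540328-33548019, minus strand, hg19) was at 15.0, 6.00 and 4.55 FPKM in A673 and at 10.6, 4.95 and 2.31 FPKM in SKNMC. It stepped down at each dose, and its log2 change was -1.19 and -1.53 in A673 and -0.97 and -1.81 in SKNMC, below 0 under each scaling. At 200 nM only 5.76% of active genes were lower than BAK1 in SKNMC and 11.3% in A673. BAK1 was at least 2-fold lower at both doses in A673, as were 13% of active genes, but with the 75th percentile its value at 50 nM was -0.96 and the call at both doses was lost. With 1 FPKM added, no member was so in SKNMC, beside 12.2% of active genes. As plain FPKM, BAK1 in SKNMC was at 46.6% and 21.8% of DMSO. With 0.1 FPKM added it was at least 2-fold lower there at both doses, at -1.09 and -2.15. No member was at least 2-fold higher at both doses, beside 0.0361% in A673, 0.134% in SKNMC and 0.0284% in both lines together. The ratio of BAX to BAK1, which no scaling of a library can move, went from 4.17 with DMSO to 8.75 and 15.2 in A673 and from 4.80 to 6.79 and 22.6 in SKNMC.

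Of the BH3-only genes, PMAIP1 encodes NOXA, a partner of MCL1 (chr18:57567179-57571538, plus strand, hg19). It was at 34.9, 37.8 and 31.7 FPKM in A673 and at 24.3, 31.8 and 20.6 FPKM in SKNMC, so it was highest at 50 nM and stayed between 84.8% and 130.6% of DMSO. At 50 nM its log2 change was 0.11 in A673, which became -0.11 with the ribosomal protein genes, and 0.37 in SKNMC, above 93.5% of active genes and close to 0 with that scaling, at 0.00080. At 200 nM it was -0.13 and -0.23, which became 0.23 and 0.32 with the 75th percentile. BCL2L11, which encodes BIM (chr2:111876954-111926024, plus strand, hg19), was at 1.80, 2.57 and 1.18 FPKM in A673 and at 0.999, 2.03 and 0.702 FPKM in SKNMC. At 50 nM it was higher than DMSO in both lines under every scaling, with log2 changes of 0.35 and 0.60 that stood above 93.7% and 97.8% of active genes. In SKNMC its FPKM at 50 nM was 203.6% of DMSO, but the added 1 FPKM keeps the log2 value under 2-fold at this low level. The step from 50 to 200 nM was -0.71 and -0.83. A maximum at 50 nM was found for 15.3% of active genes in A673 and 19.4% in SKNMC.

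BBC3 and BID differed between the lines. BBC3, which encodes PUMA (chr19:47724080-47736023, minus strand, hg19), was low in A673, at 0.709, 0.675 and 0.854 FPKM, and was at 2.32, 3.32 and 1.38 FPKM in SKNMC. In SKNMC it resembled BCL2L11, with a maximum at 50 nM and a log2 change of 0.38 at that dose. BID, which links death receptors to mitochondria after cleavage by caspase 8, lies at chr22:18216905-18257536 on the minus strand (hg19). It was at 38.6, 38.4 and 40.5 FPKM in A673 and at 33.4, 27.5 and 22.7 FPKM in SKNMC. The A673 libraries with THZ1 were at 99.5% and 105.0% of DMSO, and the SKNMC libraries stepped down to 82.3% and 68.1%. The log2 change of BID at 200 nM in SKNMC was -0.53, close to the median of active genes, and became 0.014 with the 75th percentile.

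Within a library the levels can be set against each other without any scaling. The sum of the pro-survival FPKM divided by that of the effectors was 2.11, 1.48 and 0.854 in A673 (DMSO, low dose, high dose) and was 1.64, 2.16 and 0.866 for SKNMC. It was lowest at 200 nM in both lines and highest at 50 nM in SKNMC, where BAX was low and MCL1 was at its DMSO level. Without MCL1 the same ratio was 0.911, 0.636 and 0.354 in A673 and was 0.604, 0.475 and 0.282 for SKNMC, a step down at each dose in both lines. Divided by the BH3-only sum, the pro-survival sum was 2.15, 1.09 and 0.844 in A673 and 1.66, 1.29 and 1.04 in SKNMC, a step down at each dose. MCL1 over PMAIP1 was 2.66, 1.30 and 1.16 in A673 and 2.62, 2.04 and 1.54 in SKNMC. MCL1 over BAX was 1.49, 0.936 and 0.534 in A673 and 1.25, 1.93 and 0.610 in SKNMC. MCL1 over BCL2L1, the pro-survival genes with the highest levels under DMSO, was 2.03, 1.92 and 2.82 in A673 and 3.78, 6.31 and 5.72 in SKNMC, so MCL1 outweighed BCL2L1 in all 6 libraries and by more in SKNMC. At 200 nM the pro-survival genes held 29.8% of the member sum in A673 and 32.1% in SKNMC, and the effectors 34.9% and 37.0%. BAX alone held 32.7% and 35.5%, so the effector sum at 200 nM was nearly all BAX. BCL2L11 and BBC3 held at most 1.15% and 1.78% of the member sum in any library, so the BH3-only sum was mostly PMAIP1 and BID. These are ratios of transcript levels and not of proteins.

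**Figure D4:**
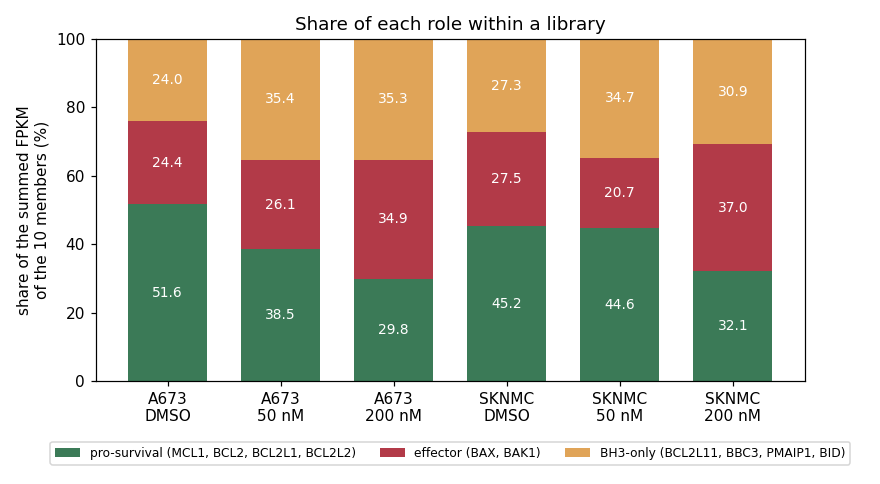
Share of the summed FPKM of the 10 members (y axis, %) held by pro-survival, effector and BH3-only genes in each library (x axis), 1 library per bar. The pro-survival share is 51.6%, 38.5% and 29.8% in A673 and 45.2%, 44.6% and 32.1% in SKNMC.

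**Figure D5:**
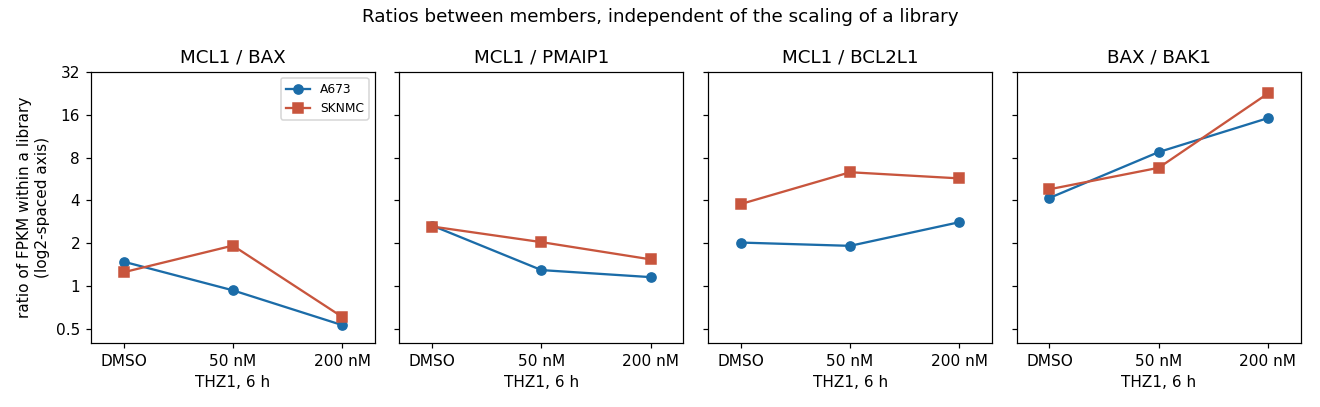
Ratios of FPKM between members within a library (y axis, log2-spaced) with DMSO, 50 nM and 200 nM THZ1 (x axis) in A673 (circles) and SKNMC (squares), 1 library per point. BAX over BAK1 is higher at each dose in both lines, and MCL1 over PMAIP1 is lower at each dose.

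Promoter windows are shown for BAK1 and BCL2L1, which stepped down with dose in both lines, and for PMAIP1, which did not. BCL2 also stepped down with dose in both lines, and its window is described below but not shown. They run from 250 bases before to 50 bases after a RefSeq transcript start on GRCh38.p14, another build than the hg19 of the expression table, and are written 5′ to 3′ on the strand of the gene. Of the 10 members, 8 matched the RefSeq promoter table, and MCL1 and BCL2L2 did not. Capitals mark matches on either strand to the TATA box TATAAA, the CCAAT box CCAAT, the GC box GGGCGG and the core of the cyclic AMP response element TGACGT. No matches overlapped one another in these 4 windows.
BAK1 (chr6:33580227-33580526, minus strand): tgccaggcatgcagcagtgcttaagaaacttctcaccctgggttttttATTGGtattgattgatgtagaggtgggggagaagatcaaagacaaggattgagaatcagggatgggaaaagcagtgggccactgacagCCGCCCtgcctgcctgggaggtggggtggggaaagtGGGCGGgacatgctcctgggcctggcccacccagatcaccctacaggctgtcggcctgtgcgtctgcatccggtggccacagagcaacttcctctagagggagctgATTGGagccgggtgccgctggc
BCL2L1, upstream start (chr20:31723914-31724213, minus strand): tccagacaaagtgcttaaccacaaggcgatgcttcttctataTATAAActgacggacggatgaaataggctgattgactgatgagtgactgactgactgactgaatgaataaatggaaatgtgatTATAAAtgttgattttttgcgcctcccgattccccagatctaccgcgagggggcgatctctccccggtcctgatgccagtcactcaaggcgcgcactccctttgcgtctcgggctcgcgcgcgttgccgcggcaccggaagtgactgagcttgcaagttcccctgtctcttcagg
BCL2L1, downstream start (chr20:31722819-31723118, minus strand): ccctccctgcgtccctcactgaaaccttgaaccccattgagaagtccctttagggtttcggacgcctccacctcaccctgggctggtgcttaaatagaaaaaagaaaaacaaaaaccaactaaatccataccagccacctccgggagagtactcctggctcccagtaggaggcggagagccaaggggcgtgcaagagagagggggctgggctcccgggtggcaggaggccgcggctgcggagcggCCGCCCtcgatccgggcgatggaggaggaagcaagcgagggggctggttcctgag
PMAIP1 (chr18:59899746-59900045, plus strand): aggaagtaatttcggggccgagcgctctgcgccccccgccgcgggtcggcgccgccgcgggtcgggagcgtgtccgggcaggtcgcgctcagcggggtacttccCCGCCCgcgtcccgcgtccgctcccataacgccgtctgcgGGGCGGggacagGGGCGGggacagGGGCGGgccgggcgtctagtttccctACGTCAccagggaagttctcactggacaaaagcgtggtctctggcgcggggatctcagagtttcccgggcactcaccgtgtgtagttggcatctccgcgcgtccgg

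The BAK1 window held 2 CCAAT boxes and 2 GC boxes, the upstream BCL2L1 window 2 TATA boxes and no GC box, and the downstream BCL2L1 window 1 GC box. The PMAIP1 window held 4 GC boxes and 1 response element core. Over all 34943 windows of the table, 11.6% held TATAAA, 34.6% CCAAT, 44.9% GGGCGG and 7.97% TGACGT. GC content was 58.7% for BAK1, 52% and 61.3% for the upstream and downstream BCL2L1 windows and 71.3% for PMAIP1, beside a median of 58.7% over all windows. The BCL2 window, not shown, held none of the motifs searched and had a GC content of 70.7%. The E-box CACGTG, the AP-1 site TGACTCA and the repeat GGAAGGAA were not found in these 4 windows, and are in 7.23%, 4.96% and 3.68% of all windows. A match is a description of the letters and not a shown binding site.

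The lines were next compared at each dose, taking genes with a mean above 1 FPKM over both libraries. With DMSO, 9 of the 10 members were higher in A673 than in SKNMC, while 55.2% of genes tested were lower in A673. The exception was BBC3, at a log2 difference (A673 against SKNMC) of -0.96. At 50 and at 200 nM, 8 members were higher in A673, while 53.8% and 49.7% of genes tested were lower. Of the members, 1 (BCL2L1) was at least 2-fold higher in A673, by 1.39 on the log2 scale, beside 8.39% of genes tested; at 50 nM it was higher by 1.24, beside 9.9%, and at 200 nM by 1.10, beside 12.4%. With 1 FPKM added, no member was at least 2-fold lower in A673 with DMSO or at 200 nM, beside 14.2% and 12.5% of genes, and 1 was at 50 nM, BBC3 at -1.37, beside 13.5%. BBC3 with DMSO passed 2-fold with 0.1 FPKM added (-1.58) and with the 75th percentile (-1.06), and its plain FPKM was 3.28-fold lower in A673. BBC3 passed the 1 FPKM limit on the mean only through SKNMC, where it was the higher, so its calls between the lines are a description. MCL1 was higher in A673 by 0.54 with DMSO and lower by a log2 difference of -0.39 at 50 nM, which became 0.24 with the ribosomal protein genes. At 200 nM MCL1 was higher by 0.20, which became -0.16 with the 75th percentile.

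The remaining genes of the mitochondrial pathway were taken as 6 lists with 47 genes, of which 39 were active in A673 and 40 in SKNMC. At the low and the high dose, 10 and 12 were at least 2-fold lower in A673, and for SKNMC these were 7 and 16. The shares of all active genes were 15.9% and 25.3% in A673 and 15.8% and 27.3% for SKNMC. Their median log2 change was -0.35 and -0.63 in A673 and -0.37 and -0.81 in SKNMC, under the medians of all active genes. Among 8 caspase and apoptosome genes, all active, 4 and 5 were at least 2-fold lower in A673 and 2 and 5 in SKNMC, with medians of -0.95, -1.03, -0.86 and -1.28. Of 13 further BCL2 family genes, 7 were active in A673, of which 1 and 2 were at least 2-fold lower, and 8 in SKNMC, of which 2 and 3 were, with medians of -0.016, 0.060, -0.26 and -0.47. Of the 6 active inhibitor of apoptosis genes and their antagonists, 2 were at least 2-fold lower at each dose in A673, and 1 and 3 in SKNMC, with medians of -0.42, -0.54, -0.76 and -1.05. None of the 3 VDAC genes, which encode channels of the outer mitochondrial membrane, was past 2-fold, and their medians were 0.30, 0.33, 0.025 and -0.13. Of the 6 active genes for transcription factors known to act on BH3-only genes, 3 and 2 were at least 2-fold lower in A673 and 2 and 3 in SKNMC, with medians of -0.93, -0.90, -0.70 and -1.06.

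Of the pathway genes, 4 were at least 2-fold lower at both doses in both lines, as were 8.7% of genes active in both lines, out of 39 pathway genes active in both. DDIT3, a stress-induced transcription factor known to act on BCL2L11, was at 13.7, 0.915 and 0.969 FPKM in A673 and at 10.7, 1.07 and 1.16 FPKM in SKNMC. BOK, a BAX-like effector, was at 14.9, 5.41 and 5.57 FPKM in A673 and at 7.21, 2.63 and 1.47 FPKM in SKNMC. CASP8, the protease that cleaves BID, was at 12.6, 5.71 and 4.76 FPKM in A673 and at 22.9, 8.02 and 6.15 FPKM in SKNMC. Of 9 genes of MCL1 turnover, 1 and 2 were at least 2-fold lower at 200 nM in A673 and SKNMC, none was at 50 nM, and 1 was at least 2-fold higher at 50 nM in each line, with medians of -0.058, -0.67, 0.21 and -0.57 in the order A673 then SKNMC, low dose before high. That gene was FBXW7, an F-box protein that targets MCL1 for degradation, at 4.84, 11.2 and 5.42 FPKM in A673 and 4.98, 14.1 and 9.60 FPKM in SKNMC; it was named after its values were seen.

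Genes with the most similar changes were sought for MCL1 and PMAIP1 by the Euclidean distance over the 4 log2 changes, among 10564 other genes active in both lines. Nearest to MCL1 were VCPKMT (distance 0.17), LMBR1L (0.23) and SLC30A7 (0.25), beside a median distance of 1.60 over all genes compared. Nearest to PMAIP1 were SF1 (0.032), CENPU (0.061) and PDPR (0.12), beside a median of 1.16. Both lists rest on 4 values per gene from 6 libraries.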

How the data were processed

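RNA was sequenced by the authors as paired reads of 100 bp from TruSeq libraries. Reads were mapped to hg19 by STAR with the Ensembl 75 annotation. The authors deposited FPKM per gene, which the paper's methods credit to StringTie, while the submitters' processing notes name Cufflinks. Tool versions and the strand setting are not given in the sources used here. The table's title speaks of average expression; each column was taken as 1 library of the sample whose title it carries. The 4 deposited columns of log2 fold changes, the authors' own comparisons, were not used.

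From FPKM, log2 ratios were computed with 1 FPKM added, and 2-fold was the threshold for a call. Without replicates no test was made. The 10 members and the lists of other genes were chosen with earlier results of these data known. The genes named are the members, pathway genes active in both lines and past 2-fold in 1 direction at both doses in both lines, and the 3 genes nearest to MCL1 and to PMAIP1; 1 pathway gene that met this rule is not reported here. Low values did not lie on steps from which depth could be read: at most 0.465% of them shared 1 ratio between libraries. Where a symbol was listed more than once, the entry with the highest mean was used. Alternatives were a pseudocount of 0.1 FPKM, a common sum, the 75th percentile of active genes, the median of ribosomal protein genes, a 1.5-fold threshold and other definitions of the genes compared. The steps were tested on simulated data. Python 3.11.15, pandas 2.3.3 and numpy 2.4.6 were used.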

Additional observations from a re-analysis of the deposited data

Results flagged for a closer look

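Over both doses 3 members lay on opposite sides of DMSO in A673 and SKNMC, a difference that could not be tested without replicates. At each dose taken alone, 8 of the 10 members had the same sign in both lines. Opposite signs were also found for 15.2% of genes active in both lines at 50 nM and for 18.7% at 200 nM. BBC3, under 1 FPKM in A673 with DMSO, is not among the genes active in both lines. MCL1 at 50 nM had a log2 change of -0.91 in A673 and 0.021 in SKNMC. BBC3 had -0.028 in A673 and 0.38 in SKNMC at 50 nM, and 0.12 and -0.48 at 200 nM, with A673 levels under 1 FPKM throughout. BID at 200 nM had 0.069 in A673 and -0.53 in SKNMC. Of these values, that of MCL1 in SKNMC and those of BBC3 and BID in A673 at 200 nM changed sign with division by the ribosomal protein genes, and those of BBC3 in A673 at 50 nM and of BID in SKNMC with the 75th percentile.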

How the results depend on the processing

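No paired analysis was possible because each condition has 1 library and the labels carry no replicate numbers; leaving out a library would remove a condition. Over the 40 log2 changes of members against DMSO, the sign changed for 8 with the 75th percentile, 6 with the ribosomal protein genes, 1 with a common sum and none with a pseudocount of 0.1 FPKM; no value past 2-fold changed sign. Comparisons below are in the order A673 then SKNMC. The shares of all active genes past 2-fold under the other scalings, pseudocount and threshold are not given here. The counts of members below are therefore not a result about the members.

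With the 75th percentile the median of the members was -0.12 and -0.17 (low and high dose) in A673 and was -0.15 and -0.23 for SKNMC. Then 1 member was at least 2-fold lower at 50 nM in A673, 3 at 200 nM in A673 and 1 at 200 nM in SKNMC. From 50 to 200 nM, 1 was then higher in A673 and 0 lower in SKNMC. Between the lines, 1 was lower in A673 with DMSO and 0 higher at 200 nM. With the ribosomal protein genes the medians of the members were -0.57, -0.73, -0.80 and -1.24. Those of all active genes were -0.48, -0.71, -0.66 and -1.05, so at 200 nM in SKNMC the median active gene was itself past 2-fold. Then 4 members were lower at 50 nM in A673, 4 at 50 nM and 6 at 200 nM in SKNMC, and 2 from 50 to 200 nM in A673. Between the lines, the number higher in A673 was 2 with DMSO, 4 at the low dose and 6 at the high dose, and 0 were lower at 50 nM. The medians of all genes compared between the lines were then 0.35, 0.49 and 0.62. With a common sum 2 were lower at 200 nM against DMSO in SKNMC, and 0 were lower from 50 to 200 nM in SKNMC.

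With a pseudocount of 0.1 FPKM the medians at 200 nM were -0.57 and -0.83, and 2 members were lower at 50 nM and 4 at 200 nM in SKNMC. From 50 to 200 nM, 2 were lower and 1 higher in A673, and 4 were lower in SKNMC. Between the lines, 1 was lower in A673 than in SKNMC with DMSO. With a 1.5-fold threshold 4 members were lower at 50 nM in A673, 5 at each dose in SKNMC and 1 higher at 50 nM in SKNMC. From 50 to 200 nM 3 were lower and 1 higher in A673, and for SKNMC 6 and 2. Between the lines 1 was lower in A673 with DMSO, 2 higher at 50 nM and 4 higher at 200 nM. With active genes defined by the mean of 3 libraries, 65 and 48 genes were at least 2-fold higher at 50 and 200 nM in A673, instead of 38 and 14, and 84 at 200 nM in SKNMC, instead of 55. Beyond what each alternative changes by its construction, the cause of these moves was not tested. Unknown depth limits the low genes BBC3 and BCL2L11 most.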
